A study of Mus musculus with 26 samples.

Results

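OT-1 and F5 thymocytes were compared at late positive selection, the stage at which a CD4+CD8+ thymocyte has received its T cell receptor (TCR) signal, has lost CXCR4 and has gained CCR7. Both lines carry a transgenic TCR that is restricted to class I MHC. The 3 OT-1 libraries (genotype OT-1 Rag2KO) and the 3 F5 libraries (genotype F5tg Rag1KO) were each sorted as CD4+CD8+CXCR4-CCR7+ and were labelled as biological replicates of the C57/BL6 strain. They make up 6 of the 26 libraries of the series, which also holds a CD4+CD8+CXCR4+CCR7- stage (early positive selection), a CD4-CD8+CXCR4-CCR7+ stage (mature CD8SP) and a line of low self-reactivity, TG6, on an H2b/d background. TG6 carries no Rag knockout in its label or in the methods for RNA-seq, so unlike OT-1 and F5 its cells can rearrange their own receptor genes. The OT-1 line stands for high self-reactivity in this study and F5 for intermediate self-reactivity, as ranked by surface CD5 and by Nur77 protein in CD8SP thymocytes. OT-1 and F5 are each 1 TCR clone, so a difference between them is a difference between 2 clones and 2 transgenic strains. The labels give no age.

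Positive selection is the step at which a thymocyte whose TCR binds self peptide on MHC survives and chooses its lineage. A TCR signal induces early response genes such as those of the Nr4a and Egr families, and raises CD5, an inhibitory receptor whose surface level follows the strength of self recognition. The selected cell then stops recombining its receptor genes, gains CCR7 to reach the thymic medulla, and gains the egress receptor S1PR1 together with the cytokine receptors and MHC class I of a mature T cell. Self-reactivity of the clone is thought to set the timing of these steps.

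The deposited table gives 1 normalized value for each of 46517 genes in each library. Of these, 18280 genes were at 0 in all 26 libraries, and 16372 genes reached 10 or more in 2 or more of the libraries and were tested. Every value quoted is a normalized read count. A fold change is the difference of group means of log2(value + 1) from limma, given with its standard error (SE) and n = 3 libraries a line. Where a line is near 0 its size depends on the pseudocount. A gene is called where its Benjamini-Hochberg adjusted p over the 16372 genes was under 0.05. Between the lines 3927 genes (24%) were called, 2230 (13.6%) higher and 1697 (10.4%) lower in OT-1, and 1544 (9.43%) differed by at least 1 log2 unit. The 3 values of one line lay wholly above the 3 of the other in 5999 genes (36.6%), OT-1 above in 19.7% and F5 above in 16.9%. These shares are the background against which each group of genes below is read. With every library scaled to the same total, 46.1% of the calls in place of 56.8% were higher in OT-1, and the median gene shifted by -0.07 on the log2 scale.

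**Figure D1:**
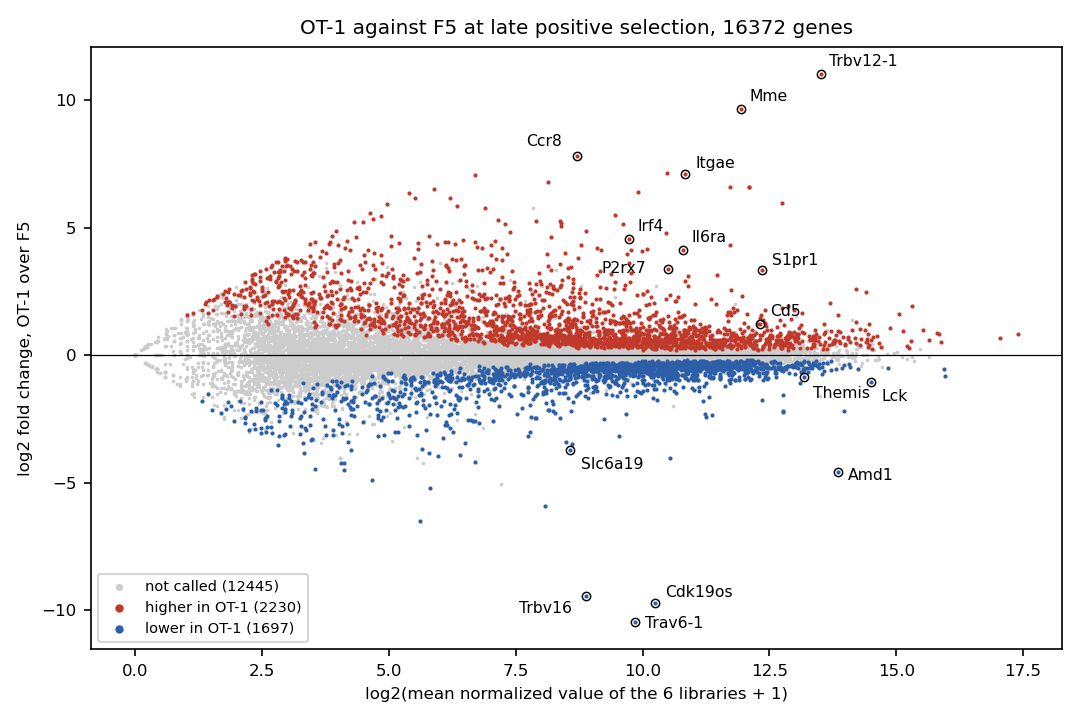
Each point is 1 of the 16372 genes tested. The horizontal axis gives the log2 of the mean normalized value of the 6 libraries plus 1, and the vertical axis the log2 fold change of OT-1 over F5. Red points (2230) are called higher and blue points (1697) called lower in OT-1, grey points (12445) are not called, and the circled genes are described in the text.

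Normalized values summed to between 16467826 and 17956066 a library. The spacing of low values gave an estimate of 16162358 to 17353628 reads, a rough one since only 33.7% to 38% of values came out whole (tolerance 0.01). Replicates of a line correlated at 0.964 to 0.977 on the log2 scale against 0.936 to 0.952 between the lines. F5 replicates stood apart from each other more than OT-1 replicates did. Among 9521 genes with a mean of at least 100 in F5, 224 were more than 1 log2 unit above and 146 more than 1 below the mean of the other replicates in F5 replicate 1, among them Id3 at 8291, 735 and 567 in replicates 1, 2 and 3. In F5 replicate 2 the counts were 109 and 94, and that library held the highest levels of Rag1 and of the cell cycle genes Cenpe and Espl1. The 7 thymocyte genes chosen as markers, Cd3e and Lck among them, were all above a mean of 100 in both lines. The summed level of 6 NK cell markers was 13.6 to 20.1 in OT-1 and 1.7 to 8.7 in F5, mostly Tyrobp and Fcer1g, with Ncr1, Klra8 and Gata2 at 0 in all 6 libraries. That of 6 B cell markers was 120.8 to 212 in OT-1 and 174.1 to 189.2 in F5, mostly Cd79b and Ms4a1, with Pax5 at 0 in all 6 libraries. The 9 markers of macrophages and dendritic cells summed to 206.4 to 254.5 in OT-1 and 140.8 to 197.4 in F5. Of these, Csf1r (6.9 to 16.9 in OT-1 and 0 in F5), Lyz2, Cd68 and Itgax were higher in OT-1 without overlap. Itgam, Adgre1, Flt3, Siglech and Xcr1 overlapped between the lines. The 6 markers of thymic epithelium summed to 123.1 to 143.3 in OT-1 and 100.6 to 106.1 in F5, from Ccl25, Psmb11 and Epcam, with Foxn1, Krt5 and Krt8 at 0 in all 6 libraries. The NK cell, macrophage and epithelial sums did not overlap between the lines. Among the NK cell and epithelial markers named, Tyrobp and Epcam did not overlap either, whereas Fcer1g, Psmb11 and Ccl25 did. The part of these markers in the results was not tested. Hemoglobin and other erythroid genes summed to between 69.1 and 1102 in OT-1 and between 47.6 and 90.4 in F5. Bulk libraries cannot tell fewer cells of a type from less RNA per cell.

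The transgenic receptors separated the lines. OT-1 uses a Vα2 (Trav14) and a Vβ5 (Trbv12) segment, and F5 a Vα4 (Trav6) and a Vβ11 (Trbv16) segment. The last 60 bases of these V segments are shown because they end at the junction that gives each clone its specificity, with the codon of the conserved cysteine in capitals (GENCODE transcripts, GRCm38).
Trbv12-1 (chr6:41114008-41114067, forward strand): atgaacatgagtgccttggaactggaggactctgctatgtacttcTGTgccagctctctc
Trav14d-1 (chr14:52856107-52856166, forward strand): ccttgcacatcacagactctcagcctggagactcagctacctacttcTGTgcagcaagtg
Trav14n-1 (chr14:53167119-53167178, forward strand): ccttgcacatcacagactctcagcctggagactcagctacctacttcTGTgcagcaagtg
Trbv16 (chr6:41152171-41152230, forward strand): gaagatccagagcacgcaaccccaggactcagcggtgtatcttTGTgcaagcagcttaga
Trav6-1 (chr14:52638903-52638962, forward strand): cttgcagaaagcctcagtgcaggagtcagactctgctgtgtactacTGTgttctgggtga
Trbv12-1 stood at 23075, 21531 and 25473 in the OT-1 replicates and 15.3, 28.1 and 2.04 in F5. Trbv16 stood at 541, 1204 and 1081 in F5 and 1.04, 0 and 0 in OT-1. Trav6-1 stood at 1162, 2066 and 2305 in F5 and 0, 0 and 1.01 in OT-1, and no fold is given against values this near 0. Each of these segments was far higher in its own line, and the F5 segments were near 0 in OT-1. Trav14d-1 and Trav14n-1 carried identical values in all libraries, 8480.2, 8678 and 8842 in OT-1 and 57.2, 78.3 and 151 in F5. Their 415-base transcripts do not differ at any base, so the reads of one cannot be told from those of the other. Of the β constant genes Trbc2 was higher in OT-1, at 62220.2, 58598 and 71730.4 in OT-1 against 16831, 16832 and 16539 in F5 (log2 fold change 1.93 ± 0.09). Trbc1, added after its values were seen, was lower in OT-1 at 24054, 21979 and 26775 in OT-1 against 31852, 32924 and 37203 in F5 (-0.49 ± 0.09, adjusted p = 0.00033).

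The knocked-out genes could not check the genotypes, because the table sums a gene over its exons. Rag1, which with Rag2 cuts receptor genes for rearrangement, stood at 33.1, 24.1 and 82.1 in OT-1 and 62.3, 1658 and 109 in F5, the Rag1KO line (-2.45 ± 0.88, adjusted p = 0.047). That call rested on F5 replicate 2, without which the log2 fold change was -1.01 (adjusted p = 0.37). Leaving out OT-1 replicate 1 or 2 also ended it (adjusted p = 0.13 and 0.15). Rag2 stood at 9.39, 11.1 and 5.37 in OT-1, the Rag2KO line, and 1.54, 122 and 7.71 in F5 and was not called (adjusted p = 0.73).

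Genes of the sort itself differed between the lines. Cd4 stood at 1963, 1455 and 4103 in OT-1 and 5160.2, 10664 and 7981 in F5, with every OT-1 library below every F5 library (-1.74 ± 0.50, adjusted p = 0.013). Ccr7 stood at 10456, 10976 and 7279 in OT-1 and 7609, 2698 and 3615 in F5, where F5 replicate 1 exceeded the lowest OT-1 library (1.16 ± 0.35, adjusted p = 0.017). The Cd4 call was lost without F5 replicate 2, OT-1 replicate 1 or OT-1 replicate 2 (adjusted p of 0.064, 0.052 and 0.076), and the Ccr7 call without F5 replicate 2 or 3 or OT-1 replicate 1 or 2 (adjusted p between 0.064 and 0.11). Cxcr4, the receptor lost at this stage, stood at 756, 350.1 and 1432 in OT-1 and 1139, 1403 and 2561 in F5 and was not called (adjusted p = 0.057), although it was called without F5 replicate 1 or OT-1 replicate 3 (adjusted p = 0.038 and 0.0091), with the replicate number as a replicate block (0.017), and with line and number as a random block by mouse (0.025). Both coreceptor chains of CD8 were lower in OT-1, Cd8b1 at 5544, 5434 and 5658 in OT-1 against 10687, 13372 and 11959 in F5 (-1.11 ± 0.15) and Cd8a with a smaller log2 difference of -0.52 ± 0.12. The 2 gates thus held cells with less Cd4 RNA in OT-1 than in F5.

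Genes that respond to the TCR signal were mostly higher in OT-1. Of 40 such genes tested, 21 were called higher and 1 lower, with a median log2 fold change of 1.05 against 0 over all genes tested. Cd5, the inhibitory receptor by which the lines were ranked, stood at 7029, 6063 and 7913 in OT-1, 2362, 4754 and 2336 in F5 and 1550.5 and 1703 in the 2 TG6 libraries of the same gate. No F5 library reached the lowest OT-1 library (1.23 ± 0.18, adjusted p = 3.8e-05), and F5 replicate 2 was about midway. Cd69, an early activation antigen that retains cells in the thymus, stood at 1252, 1336 and 2297 in OT-1 and 697, 521 and 508 in F5 (1.46 ± 0.32, adjusted p = 0.0018).

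Of the early response transcription factors, some were called and others not. Egr1 stood at 4069, 2801 and 1250.0 in OT-1 and 996, 1359 and 1037 in F5 (1.11 ± 0.34, adjusted p = 0.022), and lost its call without either of OT-1 replicates 1 and 2 or either of F5 replicates 1 and 3 (adjusted p between 0.060 and 0.16). Egr3 stood at 171, 148 and 221 in OT-1 and 40.9, 45.2 and 82.5 in F5 (1.71 ± 0.41, adjusted p = 0.004), whereas Egr2, at 408, 299 and 207 in OT-1 and 129.9, 222 and 132 in F5, was not called (adjusted p = 0.22). Nr4a1, which encodes Nur77, stood at 13330.5, 9993 and 4592 in OT-1 and 10449.8, 2902 and 3247 in F5. F5 replicate 1 lay above 2 of the OT-1 libraries, and the gene was not called (adjusted p = 0.39). It was called with array weights, which weight each library (log2 fold change 1.53, adjusted p = 0.028). The Nur77 by which the study ranked the lines was protein in CD8SP cells, so it is another measure at another stage. Nr4a3 stood at 2136, 3344 and 512 in OT-1 and 1105, 146 and 79.1 in F5 (adjusted p = 0.075), and was called without F5 replicate 1 (2.71 became 3.83, adjusted p = 0.016) or OT-1 replicate 3 (adjusted p = 0.040), and with the block by mouse (adjusted p = 0.034).

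Irf4, a transcription factor whose level follows TCR signal strength, stood at 1929, 1864 and 1124 in OT-1, 69.5, 50.2 and 86.6 in F5 and 286 and 302 in TG6 (4.55 ± 0.28, adjusted p = 1.3e-10). Tox2, an HMG-box factor, stood at 1743, 1316 and 1854 in OT-1 and 82, 155 and 59.1 in F5 (4.14 ± 0.42). Its relative Tox, needed for CD4 lineage development, went the other way at 4088, 3387 and 4486 in OT-1 against 6708, 8104 and 7213 in F5 (-0.89 ± 0.11) and was the only one of the 40 genes called lower. Batf, an AP-1 partner of Irf4, stood at 234, 205 and 241 in OT-1 and 61.3, 65.2 and 41.8 in F5 (2.02 ± 0.16), and Ikzf2, which encodes Helios, at 5142, 4998 and 4378 in OT-1 and 2078, 1564 and 1274 in F5 (1.59 ± 0.15). No gene of these 5 overlapped between the lines. Relb, a subunit of NF-kB, stood at 657, 852 and 651 in OT-1, 140.0, 158 and 139 in F5 and 614 and 750.1 in TG6 (2.29 ± 0.19), with F5 the lowest of the 3 lines. Of 29 genes of NF-kB and TNF receptor signalling, 13 were called higher and 1 lower (median 0.44). Myc, which drives cell growth, stood at 469.8, 419 and 844 in OT-1 and 221, 263 and 225 in F5 (1.22 ± 0.35, adjusted p = 0.014), a call lost without OT-1 replicate 3 (adjusted p = 0.091).

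**Figure D2:**
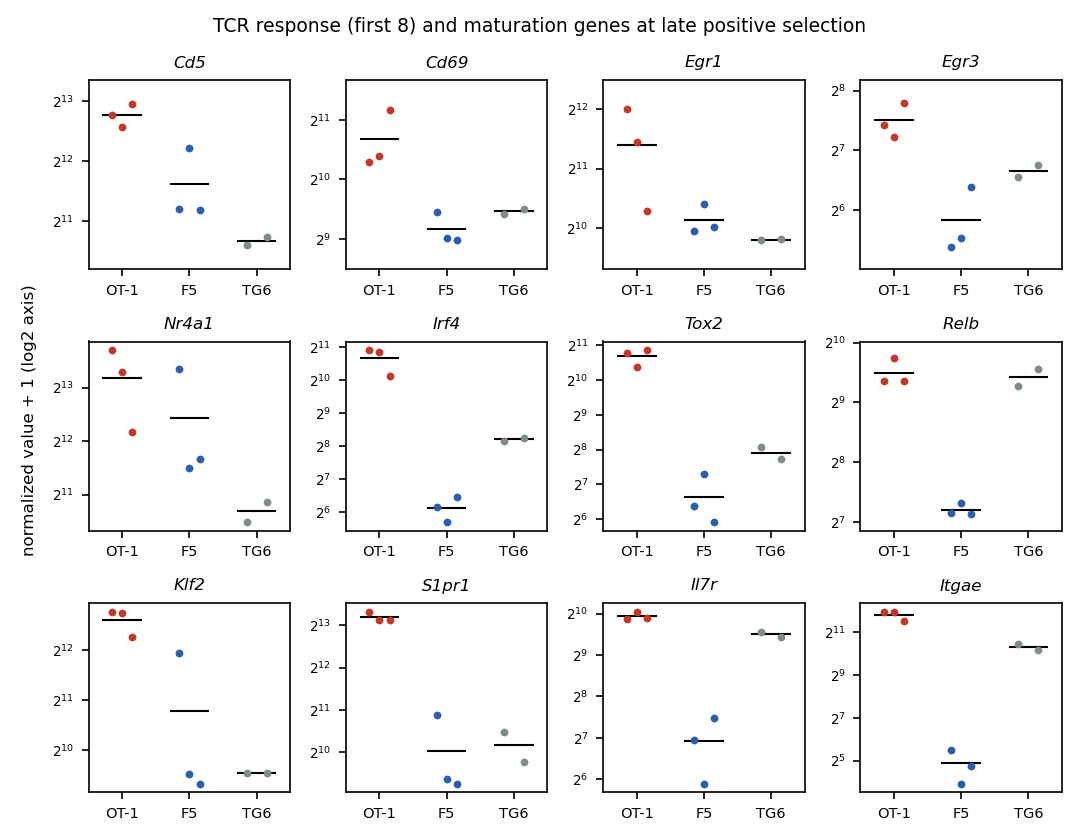
Each panel is 1 gene and each point 1 library at late positive selection, on a log2 axis of the normalized value plus 1, with a bar at the mean (3 OT-1, 3 F5 and 2 TG6 libraries). Irf4, Tox2, S1pr1, Il7r and Itgae do not overlap between OT-1 and F5, whereas for Nr4a1 an F5 library lies among the OT-1 values.

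Inhibitors of TCR signalling and the proximal signalling machinery showed smaller shifts. Of 39 attenuators, 10 were called higher and 2 lower in OT-1 (median 0.18), with 1 lower without F5 replicate 2 or 3 or OT-1 replicate 1 or 2, and 3 lower without F5 replicate 1. Cd6, a receptor related to CD5, stood at 8143, 7693 and 8469.9 in OT-1 against 4625, 5987 and 3850.4 in F5 (0.77 ± 0.11), and the adaptor gene Lax1 at 1848, 1695 and 1747 in OT-1 against 702, 652 and 776 in F5 (1.31 ± 0.14). Dgkz, a kinase that removes the second messenger diacylglycerol, was lower in OT-1 at 12673, 11704 and 14562 in OT-1 against 18098, 18929 and 18221 in F5 (-0.51 ± 0.09). Among 40 proximal signalling genes 7 were called higher and 6 lower (median -0.04). Lck, the coreceptor-bound kinase that starts the signal, was among the lower ones at 15138, 13831 and 16359.9 in OT-1 against 31053, 31824 and 31826 in F5, with little spread in either line (-1.07 ± 0.07, adjusted p = 9.8e-10). Ppp3ca, a catalytic subunit of calcineurin, was higher at 815, 856 and 884 in OT-1 against 306, 224 and 295 in F5 (1.64 ± 0.20).

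Genes that rise as thymocytes mature and leave were mostly higher in OT-1. Of 45 genes of maturation and egress, 27 were called higher and 3 lower in OT-1 (median 0.97). The number lower was 1 without F5 replicate 2 or 3 or OT-1 replicate 1 or 2. S1pr1, the receptor that takes mature T cells out of the thymus, stood at 10220.1, 8896 and 8976 in OT-1, 1893, 657 and 612 in F5 and 1431 and 869.9 in TG6 (3.35 ± 0.43, adjusted p = 5.7e-06). Klf2, the transcription factor upstream of S1pr1, stood at 6967, 6808 and 4916 in OT-1 and 3936, 731 and 639.9 in F5, where replicate 1 was the highest, and 745 and 743 in TG6 (2.33 ± 0.50, adjusted p = 0.0017), a call lost when the 6 late libraries were fitted alone (adjusted p = 0.07). Il7r, the receptor for a survival cytokine, stood at 932, 1057 and 948 in OT-1, 123, 58.2 and 177 in F5 and 757 and 690.1 in TG6 (3.16 ± 0.44). TG6 lay below every OT-1 library for all 3 genes, and above every F5 library for Il7r alone.

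Itgae, the αE integrin (CD103) that holds CD8 T cells to epithelium, gave the greatest fold change of the maturation genes. It stood at 4019, 3977 and 2934 in OT-1, 44.9, 14.1 and 25.5 in F5 and 1410.2 and 1173 in TG6 (7.09 ± 0.44, adjusted p = 1.6e-10). The gene (chr11:73090583-73147446) was at a mean of 9266 in OT-1 and 2459 in F5 at the mature CD8SP stage, so the line difference was smaller there, and the change of that difference from the late to the mature stage was itself called (5.12 ± 0.62, adjusted p = 0.00013). Plac8 stood at 2077, 1598 and 1982 in OT-1 and 45.5, 17.7 and 12 in F5 (6.38 ± 0.34), and Ms4a4b, a membrane protein of mature T cells, at 6258, 5369.9 and 6028 in OT-1 and 1067, 809 and 1109 in F5 (2.57 ± 0.18). Bcl2, a survival factor, was higher by 0.98 ± 0.18. Itga4, an integrin chain, was 1 of the 3 called lower, at 2452, 2215 and 2333 in OT-1 against 4159, 4355 and 4992 in F5 (-0.94 ± 0.12). Of the survival and death genes, Bcl2l11, which encodes the death factor Bim, stood at 4762, 6202 and 3168 in OT-1 and 7916, 3646 and 4773 in F5 and was not called (adjusted p = 0.76).

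Position along each line's own course was set out with genes chosen in TG6 alone, a choice made after seeing the data and given as a description. For 1559 genes called higher by more than 1 log2 unit in mature CD8SP than in early TG6 cells, the late OT-1 libraries had covered 77.4%, 72.4% and 70.2% of OT-1's own early to mature span of 1.24 log2 units. The late F5 libraries had covered 50.9%, 37% and 39.6% of F5's own span of 1.21. For the 1128 genes that TG6 lost by more than 1 log2 unit the order was not seen: OT-1 had covered 79.8%, 81% and 79.1% and F5 85.2%, 56.7% and 79.4% of their spans (-1.19 and -1.12). The lines did not overlap for the rising genes and overlapped for the falling ones, where F5 replicate 2 had covered the least.

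Ccr8, a receptor for the thymic chemokine CCL1, stood at 865, 593 and 1017 in OT-1, 2.04, 4.02 and 2.04 in F5 and 13.7 and 35.4 in TG6 (adjusted p = 1.3e-11). Ccr4, which with CCR7 draws selected thymocytes into the medulla, stood at 5364, 4202 and 5547 in OT-1 and 1342, 1877 and 1453 in F5 (1.70 ± 0.17). Of 28 trafficking genes, 13 were called higher and 5 lower in OT-1 (median 0.85), and 8 lower without OT-1 replicate 3, 9 with quantile normalization and 10 with array weights.

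A mixed list of effector and type 17 genes was called in part. Of the 34 tested, which include Ccr4, Ccr8 and Plch1, 17 were called higher in OT-1, 2 lower and 15 were not called (median 1.14). Il2rb, a chain of the IL-2 and IL-15 receptors, stood at 2054, 1925 and 1777 in OT-1, 182, 83.7 and 90 in F5 and 1149.8 and 1248 in TG6 (4.10 ± 0.30). The gap was narrower in mature CD8SP cells (0.80), and the change was called (3.30 ± 0.42, adjusted p = 0.0002). Il12rb2 and Il18r1, receptors for type 1 cytokines, were the 2 called lower. Il18r1 stood at 200.4, 202 and 123 in OT-1 and 363, 765 and 409.8 in F5 (-1.5 ± 0.33), yet was higher in OT-1 than in F5 in mature CD8SP cells (2.62, adjusted p = 8.8e-06), a turn that was itself called (-4.12 ± 0.47, adjusted p = 0.0001).

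Some markers of other T cell types differed between the lines and others did not. Ccr4 and Cd40lg are also members of the effector list above. The summed level of 6 markers of γδ and double-negative thymocytes was 17941 to 18741 in OT-1 and 6896 to 8510 in F5. Cd163l1 and Sox13, a transcription factor of γδ cells with medians of 2588 in OT-1 and 92 in F5, made most of that difference. Blk, a kinase gene, was also higher in OT-1 (90 to 207 against 11 to 14.3), as was Kit, a growth factor receptor (33.5 to 57.9 against 16.6 to 26.4). Trdc, the δ constant gene, had medians of 8733 and 7626 (adjusted p = 0.4), and Il2ra, the IL-2 receptor α chain, was lower in OT-1 with medians of 105 and 214. The summed level of 6 markers of CD4 helper and regulatory T cells was 5557 to 6813 in OT-1 and 2183 to 2746 in F5, most of it from Ccr4. Cd40lg, a helper cell ligand, was higher in OT-1 (179 to 237 against 47.2 to 95), and Foxp3, which defines regulatory T cells, lay between 7.9 and 10.6 in OT-1 and between 4.9 and 14.9 in F5. Ctla4 also overlapped, at 302 to 1011 in OT-1 and 203 to 1139 in F5. No marker of either list was at 0 in every library of a line. Their part in the results was not tested.

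Lineage factors were mixed. Of 29 coreceptor and lineage genes, 7 were called higher and 12 lower in OT-1 (median -0.37), and 4 higher without F5 replicate 3. The median was -0.17 without F5 replicate 1. Zbtb7b, which encodes ThPOK, the factor that commits cells to the CD4 lineage, stood at 175, 96 and 461 in OT-1 and 12.3, 13.5 and 35.2 in F5 (3.38 ± 0.70, adjusted p = 0.0012), with every OT-1 library above every F5 library although both TCRs select CD8 cells. Runx3, its CD8 lineage counterpart, stood at 4658, 4298 and 3805 in OT-1 and 4394, 3174 and 3873 in F5 and was not called (adjusted p = 0.76). Gata3 stood at 1735, 1106 and 2088 in OT-1 and 1097, 1308 and 1013 in F5 (adjusted p = 0.2). Satb1, a chromatin organizer of double-positive cells, was lower in OT-1 at 45404, 46628 and 45522 in OT-1 against 84081, 78048 and 81519 in F5 (-0.82 ± 0.10), and Ikzf1, which encodes Ikaros, was higher at 24247, 22437 and 21440.4 in OT-1 against 15655, 13617 and 13975 in F5 (0.66 ± 0.08).

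Of 31 costimulatory and inhibitory receptors, 17 were called higher and 6 lower (median 0.55), and 11 were called higher without F5 replicate 3. Btla, an inhibitory receptor, stood at 2579.9, 2803 and 2495 in OT-1 and 711, 443 and 671 in F5 (2.14 ± 0.28), and the tetraspanin gene Cd82 at 2431, 2613 and 2424 in OT-1 and 898, 814 and 925 in F5 (1.5 ± 0.15). Cd226, an activating receptor, was lower in OT-1 at 1137, 1038 and 1349 in OT-1 against 2603, 2603 and 3290.1 in F5 (-1.27 ± 0.23). Tnfrsf9, which encodes 4-1BB, stood at 83, 53.6 and 44 in OT-1 against 7.09, 2.59 and 0 in F5 (adjusted p = 9.5e-06).

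Genes of the preselection state were higher in F5. Of 11 genes that the study took as markers of double-positive cells before selection, none was called higher and 9 were called lower in OT-1, with a median of -0.98. Themis, a scaffold that tunes TCR signalling during positive selection, stood at 6818, 6320.3 and 6793 in OT-1, 11729.6, 12126 and 12169 in F5 and 10805 and 9961 in TG6 (-0.85 ± 0.08, adjusted p = 1.1e-07). Plxnd1, a semaphorin receptor that guides selected thymocytes to the medulla, stood at 926, 1241 and 938 in OT-1, 3977, 4096 and 2775 in F5 and 2243 and 2157 in TG6 (-1.80 ± 0.21). Slc6a19, a neutral amino acid transporter, stood at 63.1, 57.5 and 39.5 in OT-1, 662, 764 and 695 in F5 and 974 and 1364 in TG6 (-3.73 ± 0.37, adjusted p = 1.6e-07). OT-1 and F5 did not overlap for any of these 3 genes.

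Tdrd5, known as a germ cell gene, stood at 125, 42 and 39.6 in OT-1, 546, 532 and 1064 in F5 and 905 and 1243 in TG6 (-3.49 ± 0.44). Spo11, the enzyme of meiotic DNA breaks, was lower in OT-1 by a log2 fold change of -0.90 ± 0.16, Wdr78 by -1.08 ± 0.27, the transcription factor gene Ets2 by -0.95 ± 0.19 and the kinase gene Clk3 by -0.56 ± 0.12. Glcci1 stood at 1243, 1533 and 1541 in OT-1 and 2208, 3871 and 2629 in F5 (-0.98 ± 0.25, adjusted p = 0.0066) and missed the threshold without F5 replicate 2 (adjusted p = 0.052). Slc7a11, a cystine transporter, stood at 103, 107 and 58 in OT-1 and 78.4, 99.2 and 107 in F5 and was not called (adjusted p = 0.84).

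A wider list of 22 double-positive stage genes held 9 that were called lower and none that was called higher in OT-1 (median -0.43). The log2 fold change was above 0 for 6 of the 22, and 2 were called higher with array weights. Only 2 were called lower without F5 replicate 2 and 3 without OT-1 replicate 1 or 2. Dntt, the template-free polymerase of receptor rearrangement, stood at 753, 622 and 1037 in OT-1 and 3038, 5122 and 3875 in F5 (-2.32 ± 0.45). Ly6d stood at 12.4, 23 and 16.2 in OT-1 and 60.2, 495 and 46.9 in F5 (-2.68 ± 0.68, adjusted p = 0.0059), a call that F5 replicate 2 carried, since the log2 fold change without it was -1.61 (adjusted p = 0.052).

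Ion channel genes that the study singled out were mostly lower in OT-1. Of 15 such genes 11 were called lower and 1 higher, with a median of -1.07. The list includes P2rx7 and Trpm4, which the study grouped with channel genes raised at high self-reactivity. Its median therefore mixes genes that the study gave in opposite directions. The study drew this list partly on the OT-1 libraries of this series, through their difference from TG6, so its direction is not independent evidence and its TG6 values were used in the choice. Cacnb3, an auxiliary subunit of voltage-gated calcium channels, stood at 93.4, 101 and 105 in OT-1, 273, 314 and 311 in F5 and 434 and 565 in TG6 (-1.57 ± 0.23, adjusted p = 2.4e-05). Kcna2, a voltage-gated potassium channel, stood at 578, 469.9 and 612 in OT-1, 931, 1426 and 1396 in F5 and 3873 and 3654 in TG6 (-1.16 ± 0.27). Tmie, a protein of the mechanotransduction channel of hair cells, stood at 65.3, 149 and 116 in OT-1, 381, 470.3 and 618 in F5 and 858 and 1022 in TG6 (-2.19 ± 0.37). For these 3 genes F5 lay between the 2 other lines with no overlap on either side.

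Kcnh2, the hERG potassium channel, stood at 599.7, 676 and 564 in OT-1, 1646, 1355 and 1717 in F5 and 1466 and 1375 in TG6 (-1.35 ± 0.18). Cacnb1 (-1.24 ± 0.25), Kcnh3 (-1.07 ± 0.19), Kcna3, the main potassium channel of T cells (-0.74 ± 0.18), and the chloride channel Clcn2 (-0.71 ± 0.16) were lower by smaller amounts. When the 6 late libraries were fitted alone Clcn2 lost its call (adjusted p = 0.076), and 8 of the 15 genes in place of 11 were called lower. The calls of Cacna1e (-1.03 ± 0.32) and Cacng4 (-1.56 ± 0.57) also changed. Cacna1e lost its call without F5 replicate 2, OT-1 replicate 2 or OT-1 replicate 3 (adjusted p between 0.056 and 0.14). Cacng4 stood at 20.8, 26.4 and 11.4 in OT-1 and 141, 16.1 and 76.7 in F5 with overlap and lost it without any 1 library other than F5 replicate 2 (adjusted p between 0.054 and 0.26). Scn2b, Scn4b and Trpm4 were not called (adjusted p of 0.7, 0.59 and 0.47).

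P2rx7, the ATP-gated cation channel, was the 1 gene of the 15 called higher. It stood at 2711, 1826 and 3287 in OT-1, 133, 457 and 239.6 in F5 and 141 and 100.1 in TG6 (3.37 ± 0.35, adjusted p = 3.5e-07).

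**Figure D3:**
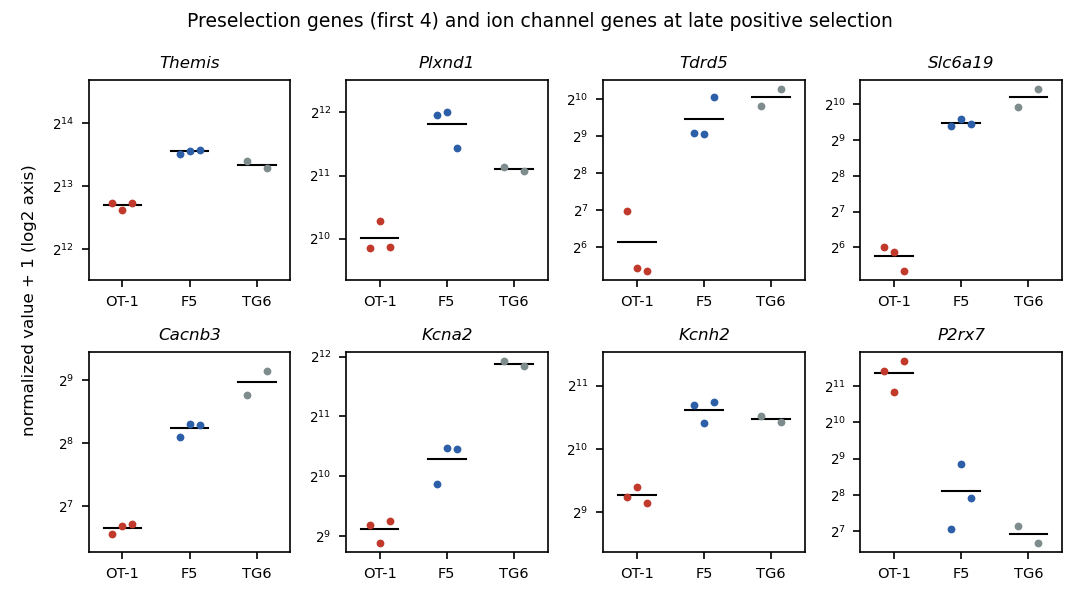
Each panel is 1 gene and each point 1 library at late positive selection, on a log2 axis of the normalized value plus 1, with a bar at the mean (3 OT-1, 3 F5 and 2 TG6 libraries). The top row shows preselection genes and the bottom row ion channel genes. OT-1 is lowest in all panels but P2rx7, where it is highest, and no panel has an overlap of OT-1 with F5.

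Interferon-stimulated genes were mostly higher in OT-1. Of 51 tested, 41 were called higher in OT-1 and none lower, with a median log2 fold change of 2.09. These genes are induced by type I interferon, which is made in the thymic medulla, through a complex that holds STAT2 and IRF9. Ifit1 stood at 611, 496 and 578 in OT-1 and 15.3, 23.1 and 28.5 in F5 (4.63 ± 0.34, adjusted p = 2.3e-09), and Isg15, a ubiquitin-like modifier, at 751, 529 and 730.0 in OT-1 and 41.9, 34.1 and 45.9 in F5 (4.0 ± 0.30). Oas1a, a sensor of double-stranded RNA, stood at 85.9, 75.4 and 106 in OT-1 and 0, 1 and 0 in F5. Every F5 library was far below every OT-1 library for these 3 genes.

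TG6, the line of lowest self-reactivity, was above F5. Ifit1 stood at 877 and 1024 in TG6, Isg15 at 562 and 730.4 and Oas1a at 85.2 and 110.1. For all 41 called genes both TG6 values lay above every F5 value, compared with 828 of the 2230 genes of any kind that were higher in OT-1. Rtp4, a receptor transporter, stood at 702, 654 and 605 in OT-1, 28.6, 10 and 21.4 in F5 and 738 and 864 in TG6, and Irf7, which amplifies the interferon response, at 1785, 1494 and 1511 in OT-1, 356, 265 and 311 in F5 and 1405 and 1740.3 in TG6. TG6 carries a different MHC haplotype, H2b/d, and its difference from the other lines includes that background. Stat2 (-0.17), Ifit2 (-0.07), Gbp4 (-0.08) and Slfn2 (0.01) were among the 10 not called.

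Promoters of these genes were searched for the interferon-stimulated response element, in the form GAAANNGAAA or, on the other strand, TTTCNNTTTC, within the 250 bases before the start (RefSeq, GRCm38.p6). Of the 51 genes 38 had an entry and 21 of these held a match (55.3%), against 936 of 27025 genes with a promoter in the table (3.46%). With 38 of 51 matched the share covers those genes only and says nothing of the others. It was 16 of 31 among the genes called higher in OT-1 and 5 of 7 among those not called, so both sets held it. Among all genes called higher in OT-1, 85 of 1563 held a match (5.44%), or 69 of 1532 (4.5%) outside the interferon list. The share was 25 of 1184 (2.11%) among those called lower and 223 of 7643 (2.92%) among those not called. Matches with 25 bases on either side, cut at the start, are shown in capitals for 6 genes called higher in OT-1 and for Stat2 and Igtp, which were not called, so that both sets can be seen to carry the same letters. All 8 have the strand of their GENCODE gene, and for 7 the bases at the RefSeq start matched the start of a GENCODE transcript. Stat2 was the exception, so its distance to the start is uncertain.
Ifit1 (chr19:34640760-34640838, forward strand): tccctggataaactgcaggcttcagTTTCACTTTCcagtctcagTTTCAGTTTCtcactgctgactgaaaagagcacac
Isg15 (chr4:156200850-156200921, reverse strand): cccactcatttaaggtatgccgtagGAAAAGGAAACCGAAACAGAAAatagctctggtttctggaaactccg
Oas1a (chr5:120907526-120907570, reverse strand): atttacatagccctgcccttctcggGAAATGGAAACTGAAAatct
Ddx60 (chr8:61928009-61928086, forward strand): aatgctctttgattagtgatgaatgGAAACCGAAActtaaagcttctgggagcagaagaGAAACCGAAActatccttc
Irgm1 (chr11:48871421-48871475, reverse strand): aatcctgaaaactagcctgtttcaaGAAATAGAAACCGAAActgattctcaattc
Bst2 (chr8:71537562-71537627, reverse strand): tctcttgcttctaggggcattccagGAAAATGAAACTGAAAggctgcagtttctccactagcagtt
Stat2 (chr10:128270251-128270310, forward strand): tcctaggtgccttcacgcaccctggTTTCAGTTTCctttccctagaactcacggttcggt
Igtp (chr11:58199497-58199555, forward strand): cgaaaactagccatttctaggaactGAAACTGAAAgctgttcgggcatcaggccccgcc
In Isg15 the 3 matches overlap, and the log2 fold change was 4.0. In Ddx60, an RNA helicase, the 2 matches stand apart (3.57), and Oas1a, Irgm1 and Bst2 each hold an overlapping pair (6.15, 2.09 and 2.77). The first of these 3 values is set by the pseudocount, since F5 was near 0. Igtp, an interferon-induced GTPase, holds 1 match (0.22, adjusted p = 0.46), as does Stat2. A match is a description of the letters and no evidence of binding.

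The line difference of the interferon-stimulated genes varied by stage. The median log2 fold change of the 51 genes was 0.71 at the early stage, 2.09 at the late stage and 1.39 in mature CD8SP cells. For 15 of the 51 the late difference differed from the early one by the interaction test, against 1.68% of all genes tested, and for none did it differ from the mature one, against 0.843%. These counts are from the fit without the block by mouse. With it, 705 and 566 genes of any kind were called in the 2 tests, and this list was not counted. Bst2, which encodes tetherin, stood at 209, 253 and 168 in OT-1 and 189, 223 and 204 in F5 at the early stage, at 628, 562 and 561 and 91.9, 85.3 and 77.4 at the late stage, and at 708, 768 and 603 and 161, 257 and 178 in mature cells. The early values overlapped, and the late difference exceeded the early one by 2.75 ± 0.24 (adjusted p = 2.3e-06). Ifi27l2a rose in OT-1 from 106, 96.4 and 72 to 488, 477 and 418 and stood in F5 at 9.74, 20.3 and 6.79 and then 9.19, 10 and 14.3 (difference of the differences 2.35 ± 0.40, adjusted p = 0.0025).

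**Figure D4:**
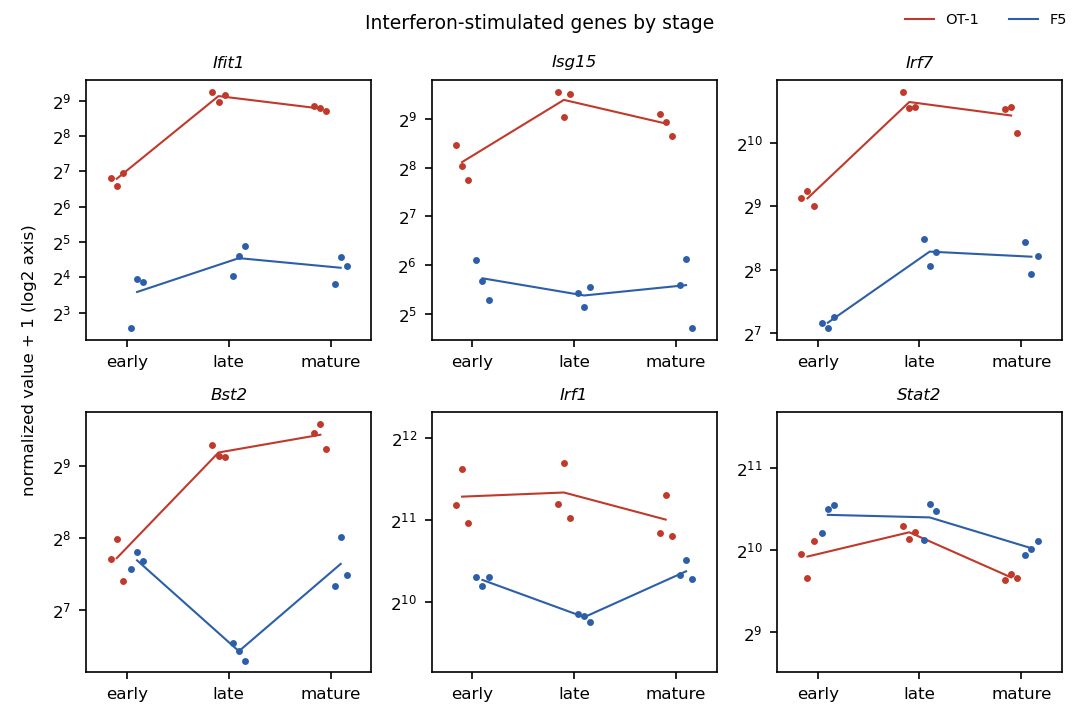
Each panel is 1 gene, with points for the 3 OT-1 (red) and 3 F5 (blue) libraries of each stage from left to right (early, late, mature), on a log2 axis of the normalized value plus 1, and lines through the group means. Bst2 values of the lines overlap at the early stage and are apart at the late stage. Stat2 has no call at the late stage.

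Of 24 genes of MHC class I and its peptide loading, 15 were called higher in OT-1 and 1 lower (median 0.63). H2-K1, a class I heavy chain, stood at 5515, 6280.3 and 4663 in OT-1, 1888, 1631 and 1553 in F5 and 6826 and 9176 in TG6 (1.69 ± 0.16, adjusted p = 8.2e-08). TG6, of another MHC haplotype, was above all F5 values in all 15 genes called higher.

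Ribosomal protein genes were higher in OT-1 by small amounts. Of 85 cytosolic ribosomal protein genes tested, 77 were called higher in OT-1 and none lower (median 0.60). Rpsa stood at 32055, 30966 and 31181 in OT-1, 15422, 12267 and 13153 in F5 and 12956 and 12142 in TG6 (1.21 ± 0.09), and Rps26 at 11827, 11637 and 11636 in OT-1, 6339.5, 5046 and 5401 in F5 and 5732 and 5070.2 in TG6 (1.07 ± 0.09). TG6 lay below every OT-1 value in 76 of the 77, compared with 1774 of the 2230 genes of any kind that were higher in OT-1. Many ribosomal protein genes have pseudogenes that can take or lend reads, so a single gene's value is uncertain. Of 83 nuclear subunits of oxidative phosphorylation 41 were called higher and none lower (median 0.39), a count that fell to 20 without F5 replicate 2, 14 without F5 replicate 3 and 22 without OT-1 replicate 1. Of 15 genes of the mitochondrial genome, looked at after their values were seen, 13 were called higher and none lower, with a summed level of 523897 to 640735 in OT-1, 249707 to 381670 in F5 and 344353 to 372247 in TG6. Pkm, the pyruvate kinase of growing cells, stood at 17661, 16839 and 18390.1 in OT-1 and 10153, 8064 and 9682 in F5 (0.93 ± 0.09), while Ldhb, a lactate dehydrogenase chain, was lower in OT-1 at 841, 848 and 841 in OT-1 against 2395, 2684 and 2041 in F5 (-1.48 ± 0.16). Of 56 Myc target and ribosome biogenesis genes 33 were called higher and 4 lower (median 0.52), and 2 lower without OT-1 replicate 1.

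Of 46 genes of DNA replication 22 were called higher in OT-1, none lower and 24 were not called (median 0.89), with 15 higher without F5 replicate 3 or when the 6 late libraries were fitted alone. E2f1, a factor that starts S phase, stood at 475, 413 and 352 in OT-1 and 64.2, 79.3 and 93.7 in F5 (2.38 ± 0.26), and Pole, the catalytic subunit of DNA polymerase ε, at 705, 632 and 671 in OT-1 and 70.5, 222 and 52.5 in F5 (2.82 ± 0.39). Of 50 genes of G2/M and mitosis, 9 were called higher and 1 lower (median 0.83), but the number higher was 29 without F5 replicate 2, 2 without F5 replicate 1, 1 without F5 replicate 3, and 4, 4 and 2 without OT-1 replicates 1, 2 and 3. It was 0 when the 6 late libraries were fitted alone. The median of the list was 0.51, 1.6 and 0.49 without F5 replicates 1, 2 and 3. Cenpe, a kinetochore motor, stood at 258, 288 and 336 in OT-1 and 11, 416 and 32.1 in F5, and Espl1, which encodes separase, at 166, 102 and 155 in OT-1 and 2.04, 214 and 3.06 in F5. Both were called (2.42 and 3.33) although F5 replicate 2 lay above every OT-1 library. Both lost the call when the 6 late libraries were fitted alone (adjusted p of 0.24 and 0.22) and without F5 replicate 1 or 3 (adjusted p between 0.081 and 0.16), and Cenpe also without OT-1 replicate 2 or 3 (adjusted p of 0.054 and 0.061). Kif23, a motor of cytokinesis, was lower in OT-1 at 886, 882 and 1006 in OT-1 against 1616, 1693 and 2023 in F5 (-0.94 ± 0.18) and higher in OT-1 in mature CD8SP cells (0.94, adjusted p = 0.00064).

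**Figure D5:**
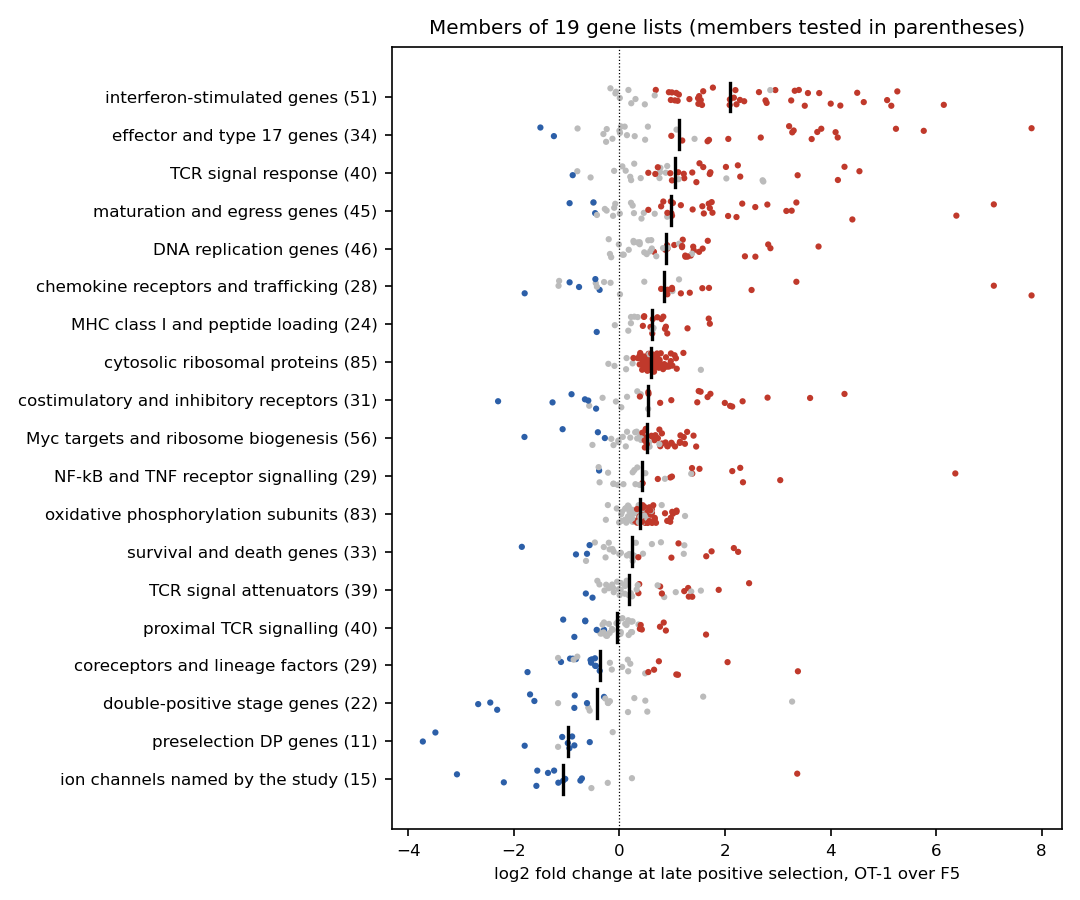
Each point is 1 gene of the list named on the left (members tested in parentheses), placed by its log2 fold change of OT-1 over F5 at late positive selection, and a black bar marks the median of the list. Red points are called higher, blue points called lower and grey points not called. The medians run from -1.07 for the ion channel genes to 2.09 for the interferon-stimulated genes, against 0 over all genes tested.

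Genes of resting peripheral CD8 T cells with low CD5, as listed by the study from 2 sources, were more often lower than higher in OT-1. Of 36 tested from the microarray list 13 were called lower and 2 higher (median -0.23), and of 38 from the RNA-seq list 13 lower and 3 higher (median -0.86), with 8 lower without F5 replicate 3 and 1 higher without OT-1 replicate 1 or 2. For all 13 of each list both TG6 values lay above every OT-1 value, as they did in 1306 of the 1697 genes of any kind that were lower in OT-1.

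The other lists are given by their counts of genes called higher or lower in OT-1, to be read against the background of 24% called. Of 32 cytokine receptors and Socs genes 13 were called higher and 5 lower (median 0.29), with 3 lower without F5 replicate 2 or 3 or OT-1 replicate 1 or 2. Il6ra, the IL-6 receptor, stood at 3774, 3243 and 3051 in OT-1 and 238, 167 and 176 in F5 (4.12 ± 0.27). Of 33 survival and death genes 7 were higher and 4 lower (median 0.24), with 4 higher without F5 replicate 3 and 2 lower without OT-1 replicate 1. The median of these genes was 0.12 without F5 replicate 3 and 0.36 without F5 replicate 1. Of 31 genes of glycolysis and the pentose phosphate path 11 were higher and 2 lower, of 40 of sterol and fatty acid synthesis 6 and 2 (0 lower without F5 replicate 2 or 3 or OT-1 replicate 1 or 2), of 34 aminoacyl-tRNA synthetases 8 and 2 (3 and 0 without F5 replicate 3), and of 76 mitochondrial ribosomal proteins 20 and 2. The 20 became 9 to 13 without F5 replicate 2 or 3 or OT-1 replicate 1 or 3. Among 220 solute carriers 34 were higher and 28 lower (median 0.01), 17 lower without OT-1 replicate 1, and 27 higher and 36 lower with equal totals. Of 29 potassium channels 1 was higher (3 without F5 replicate 1) and 6 were lower, among 12 calcium channel subunits 0 and 5 (3 lower without OT-1 replicate 2 or 3), and among 6 sodium channel subunits 0 and 1. Of 103 TCR segments 5 were higher and 9 lower, and of 8 Gimap GTPases 2 and 1.

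The genes with the largest differences, beside the receptor segments, were a mixed set. Mme, which encodes the peptidase CD10 (chr3:63241537-63386030), stood at 7672, 7708 and 8101 in OT-1, 16.6, 12.7 and 2.87 in F5 and 0 and 0 in TG6 (9.64 ± 0.50, adjusted p = 1.1e-11). It was already apart at the early stage, with means of 15457 in OT-1 and 0.915 in F5. Plch1, a phospholipase C gene 310.2 kb away, stood at 241, 190.5 and 262 in OT-1 and 4.12, 3.64 and 2.18 in F5 (adjusted p = 7.7e-08). Of the 8 other genes tested within 1 Mb of Mme, 2 were called higher, Plch1 and Gmps (0.58), and none lower.

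Adam19, a membrane metalloprotease, stood at 3364, 3159 and 1932 in OT-1, 30.8, 8.63 and 22.3 in F5 and 1596 and 1226 in TG6 (7.15 ± 0.54). Cd163l1, a scavenger receptor known from γδ T cells (chr7:140218267-140231145), stood at 7058, 7008 and 5923 in OT-1, 56.2, 62.2 and 85.6 in F5 and 748 and 284 in TG6 (6.61 ± 0.37). Its neighbour Olfr524, an olfactory receptor gene (chr7:140198499-140205964), stood at 586, 646 and 431 in OT-1 and 2.04, 9.03 and 3.06 in F5 (adjusted p = 9.7e-09). Tcrg-C4, a γ chain constant gene, stood at 241, 114 and 258 in OT-1 and 2.04, 0 and 0 in F5. OT-1 was the highest of the 3 lines for each gene of this paragraph with a TG6 value.

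Higher in F5 was Amd1, which makes an enzyme of polyamine synthesis (chr10:40287458-40302186). It stood at 1229, 1519.8 and 871 in OT-1, 32345, 25956 and 26679 in F5 and 704 and 665 in TG6 (-4.58 ± 0.18, adjusted p = 1.6e-13), and F5 means were 21638 and 18851 at the early and mature stages. Amd2, a near copy of Amd1 that can share its reads, stood at 0, 33.5 and 15.2 in OT-1 and 719.9, 495 and 352 in F5 (-5.93 ± 0.82), so its value is uncertain. Cdk19os, annotated antisense to Cdk19 and 46.3 kb from Amd1 (chr10:40348508-40350103), stood at 2.79, 5.19 and 0 in OT-1, 1969.6, 2732 and 2542 in F5 and 0 and 1.77 in TG6, and no fold is given against values this near 0. Whether reads were counted by strand is not stated in the sources used here, and Cdk19 itself was lower in OT-1 by a log2 fold change of -0.91. Of the 14 other genes tested within 1 Mb of Amd1, 2 were called higher and 4 lower in OT-1, Cdk19 and Cdk19os among the latter.

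Other genes with large differences towards F5 were Gm14085 at 149, 199.9 and 154 in OT-1 against 2426, 3696 and 2291 in F5, the sulfide oxidoreductase gene Sqrdl at 9.39, 10.1 and 9.29 in OT-1 against 203, 184 and 197 in F5, and Pck2, a mitochondrial phosphoenolpyruvate carboxykinase, at 11.4, 7.33 and 10.1 in OT-1 against 150.1, 144 and 181 in F5. Their log2 fold changes were -4.04 ± 0.39, -4.21 ± 0.30 and -3.92 ± 0.31. Tspan2, a tetraspanin, stood at 8.43, 4.05 and 7.43 in OT-1 and 121, 138 and 87.7 in F5 (-3.96 ± 0.69). Gm14292, at 0, 0 and 21.3 in OT-1 and 110.3, 94.3 and 103 in F5, lost its call without OT-1 replicate 1 (adjusted p = 0.052).

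The same contrast was made at the other stages, with separate libraries. At early positive selection 2077 genes (12.7%) were called between OT-1 and F5, 7.81% higher and 4.88% lower in OT-1, and in mature CD8SP cells 3821 genes (23.3%), 13.3% higher and 10.1% lower. Of the 3927 genes called at the late stage, 1414 were called in the same direction at the early stage, 2149 in mature cells and 1067 at both. Whether libraries of a line with the same number came from 1 mouse is not given, so these counts may share animals. The late difference itself differed from the early one for 275 genes (1.68%), 175 towards OT-1 (1.07%) and 100 towards F5 (0.611%), and from the mature one for 138 genes (0.843%), 70 (0.428%) and 68 (0.415%). With every library scaled to the same total the late to mature split was 135 and 61.

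Ikzf2 had a line difference at the late stage alone of the 3 stages. Ikzf2 stood at 5389, 4446 and 4767 in OT-1 and 4988, 4933 and 4816 in F5 at the early stage and at 3888, 3586 and 3707 and 4452, 3372 and 4201 in mature cells (adjusted p = 0.96 and 0.68). The late difference exceeded the early one by 1.6 ± 0.21 (adjusted p = 0.00018) and the mature one by 1.68 ± 0.21 (adjusted p = 0.00017). For Cd5 the line difference was 0.29 at the early stage (adjusted p = 0.33), 1.23 at the late stage and 0.53 in mature cells (adjusted p = 0.041), and neither change was called (adjusted p = 0.073 and 0.26).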

How the data were processed

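RNA-seq was deposited for 26 sorted thymocyte libraries. According to the labels the authors trimmed reads (Trimmomatic 0.32), aligned them to mm10 (Bowtie2 2.3.2), estimated gene counts (RSEM 1.2.31) and normalized them with DESeq2; the deposited values are that normalized signal per gene, not whole reads, so no count test was run. All 26 columns were used. Values were transformed to log2(value + 1), genes reaching 10 in 2 or more libraries were kept, and limma 3.58.1 (R 4.3.3) fitted 9 group means with a variance trend. P-values were adjusted by Benjamini-Hochberg over 16372 genes, called under 0.05. Code was tested on simulated data. Positions are from GENCODE release M21 and promoters from RefSeq.

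Named genes were the 10 largest non-overlapping called changes per direction with a mean of at least 100, up to 3 called members per list and direction, the 5 smallest interaction p-values per direction, and a set of selection genes. Others, such as Sox13, Trdc, Il2ra, Foxp3, Blk, Kit, Cd40lg, Cdk19, Gmps and Id3, were chosen after their values were seen. The comparison, lists and named genes were chosen with earlier results of these data known. Alternatives were other pseudocounts, filters, scalings and models, and leaving out each library. The labels call replicates biological. Normalized values summed to 16134786 to 17956066 in a late library. Some members of the lists are counted with their list but are not reported here by name.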

Additional observations from a re-analysis of the deposited data

Results flagged for a closer look

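The difference between OT-1 and F5 was itself compared between stages with interaction terms of the 9-group limma fit. It changed from the early to the late stage for 275 genes and from the mature to the late stage for 138 genes. The values below, in log2 units, are the late difference minus that of the other stage, each with an adjusted p under 0.05.

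From early to late, some interferon-induced genes and a class I MHC gene moved towards OT-1: Bst2 (2.75), Ifi27l2a (2.35), Lgals3bp (1.70), Irgm1 (1.47) and H2-K1 (1.36). In either direction this change was called for 15 of the 51 interferon-stimulated genes and for 4 of the 24 genes of MHC class I and peptide loading. Others that moved towards OT-1 were Itgae (4.29), Gsg2 (3.04), Pole (2.58), Plac8 (2.18), Irf4 (2.13), Dpy19l1 (1.87), Ly75 (1.69), E2f1 (1.67), Ikzf2 (1.6), Ppp3ca (1.2), Ms4a4b (1.14), Lax1 (0.98) and Cd6 (0.81). The lines were within 0.05 of each other at the early stage for Bst2, Cd6 and Ikzf2.

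In the same comparison Trbv12-1 (-3.79), Mme (-3.48), Itgb3 (-2.57) and Gimap4 (-2.38) were higher in OT-1 at both stages with a smaller difference at the late one. For Mme and Trbv12-1 F5 was near 0, so these values depend on the pseudocount. Others that moved towards F5 were Pck2 (-2.20), Fam46c (-2.14), F13a1 (-2.14), Slc6a19 (-2.05), Il12rb2 (-1.93), Cd226 (-1.30), Tox (-1.08), Mlec (-0.92) and Satb1 (-0.68).

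Against mature CD8SP cells, the late difference was larger towards OT-1 for Itgae (5.12), Haao (3.96), Adam19 (3.65), Fam101b (3.54), Il2rb (3.30), Plac8 (2.73), Snai3 (1.72), Il6ra (1.72), Ikzf2 (1.68), Ms4a4b (1.62) and Lax1 (1.02). It lay further towards F5 than the mature difference for Pcsk1 (-4.73), Il18r1 (-4.12), Pck2 (-2.56), Cd44 (-2.39), Plxnd1 (-2.33), Kif23 (-1.88) and Cdk19 (-0.58). Of these, Il18r1, Kif23, Cd44 and Pcsk1 were called higher in OT-1 than in F5 in mature cells. For Cd44 the line difference was 1.97 in mature cells, and at the late stage it was -0.43 and not called. What sets these changes was not tested.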

How the results depend on the processing

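The number of genes called between OT-1 and F5 at the late stage was 3927, and lay between 2651 and 5758 under the 12 other settings that keep every library. Leaving out 1 library gave 2765 to 4113. The late to early change was called for 275 genes, for 705 with a replicate block by mouse (line and number as a random block) and for 849 with array weights, and for 137 to 346 when 1 library was left out, fewest without OT-1 late replicate 1. It was 161 without F5 early replicate 2 or OT-1 early replicate 1, 163 without F5 early replicate 3 and 168 without OT-1 early replicate 2. The late to mature change was called for 138 genes, for 566 with the block by mouse and 800 with array weights, and for 81 to 226 when 1 library was left out, most without F5 late replicate 1. It was 81 and 90 without OT-1 late replicate 1 and 2, 84 without F5 mature replicate 3, and 86, 86 and 85 without OT-1 mature replicates 1, 2 and 3. The cause was not tested. With the replicate number as an additive replicate block the 3 counts were 4057, 316 and 196. OT-1 and F5 libraries share only a number, since their same-numbered deviations correlated at 0.0043, -0.12 and 0.06. Within a line, 9 of 12 same-numbered pairs across stages correlated above 0.1 (0.019 to 0.34). The F5 pairs lay between 0.135 and 0.34 and the OT-1 pairs between 0.019 and 0.178. The labels do not say whether such libraries share a mouse, and the source of these correlations was not tested. The split of late calls was 56.8% higher in OT-1, 46.1% with equal totals and 50.4% with quantile normalization, and that of late to mature calls 50.7%, 68.9% and 60.8%. Genes called both here and under another setting had the same sign in every case. Of 183 genes chosen to be named and called at the late stage, 150 kept the call under all 18 other settings, 33 lost it under at least 1, and none changed sign. With the 6 late libraries fitted alone, Ccr7, Egr1, Rag1, Ly6d, Cacna1e and Cacng4 were among the genes that lost their call (adjusted p between 0.087 and 0.24). List medians changed sign under some setting for potassium channels, solute carriers and TCR segments alone. With 3 libraries a line, and values that are not whole reads, counting error cannot be given.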
